A study of Mus musculus with 16 samples.

Results

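Regulatory T cell genes are described here as a list of 9 genes, Foxp3, Ctla4, Il2ra, Ikzf2, Tnfrsf4, Tnfrsf18, Icos, Il1rl1 and Klrg1, out of 54752 genes in the count table. They were chosen by name and not by any measured value, and each was followed across 16 libraries and also as a ratio to Cd3e, a signalling chain of the T cell receptor complex. All 9 passed the filter on low counts, among 19736 genes tested. Foxp3 and Ctla4 did so only through the libraries where they were high. The tissue was inguinal white adipose tissue (iWAT), a subcutaneous fat depot, taken at 90 days of age from mice labelled female on a C57BL/6 background. The 4 genotypes had 4 libraries each. WT mice carried neither mutation. Lepob/+ mice were heterozygous for the obese allele of leptin, the hormone that fat cells secrete. SOD1G93A mice carried many copies of a human mutant SOD1 transgene and are a model of amyotrophic lateral sclerosis in which the mutant protein is made in most tissues, not in fat alone. SOD1G93A-Lepob/+ mice carried both the transgene and a heterozygous obese allele. The study asked how the SOD1 mutation and a partial loss of leptin, alone and combined, changed the adipose transcriptome.

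Regulatory T cells are CD4 T cells that restrain the responses of other lymphocytes. Their identity depends on the transcription factor Foxp3, and they take up interleukin-2 through a receptor that contains Il2ra (CD25). They are found in lymph nodes, where they circulate through high endothelial venules, and also as a resident population of adipose tissue that expresses the interleukin-33 receptor ST2 (Il1rl1) and is known for limiting inflammation in fat. Apart from Foxp3, each gene of the list is also used by other cells, such as activated conventional T cells, natural killer cells, type 2 innate lymphoid cells or mast cells.

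The list joins genes of different loci, and some of them are neighbours. On GRCm38, Foxp3 lies on the plus strand at chrX:7573644-7595245. Ctla4 (chr1:60887000-60915832) and Icos (chr1:60977927-61000320) lie 62094 bases apart on the plus strand. Tnfrsf4 (chr4:156013843-156016612) and Tnfrsf18 (chr4:156026164-156028895) lie 9551 bases apart, also on the plus strand. Il1rl1 is at chr1:40429570-40465415 and Il2ra at chr2:11642807-11693193, both on the plus strand, while Ikzf2 (chr1:69531214-69687245) and Klrg1 (chr6:122270596-122282882) are on the minus strand. Exons of Foxp3 overlap those of Ccdc22, Ppp1r3f and Gm36995 on the opposite strand and of Flicr on its own strand. Exons of Ikzf2 and Tnfrsf18 overlap Gm29114 and Gm16008 on the opposite strand. The strand setting of the counting was not given in the sources used here, so reads of these pairs may not be fully separated.

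Promoter sequence was found for 6 of the 9 genes. The windows of Foxp3, Ctla4 and Il1rl1 are shown because Foxp3 and Ctla4 had the same pattern over the libraries, whereas Il1rl1 had another and has a pair of start sites. Each window holds the 250 bases before a RefSeq start on GRCm38.p6, plus strand, and capitals mark a GATA match (AGATAA or TGATAA on either strand). The windows are chrX:7579426-7579675 for Foxp3, chr1:60908775-60909024 for Ctla4, and chr1:40429320-40429569 and chr1:40439379-40439628 for the distal and the proximal start of Il1rl1.
Foxp3: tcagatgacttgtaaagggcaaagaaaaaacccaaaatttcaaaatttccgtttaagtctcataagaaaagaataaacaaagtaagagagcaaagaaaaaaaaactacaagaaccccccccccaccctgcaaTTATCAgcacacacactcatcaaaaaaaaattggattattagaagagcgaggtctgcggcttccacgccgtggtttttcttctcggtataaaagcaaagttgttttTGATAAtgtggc
Ctla4: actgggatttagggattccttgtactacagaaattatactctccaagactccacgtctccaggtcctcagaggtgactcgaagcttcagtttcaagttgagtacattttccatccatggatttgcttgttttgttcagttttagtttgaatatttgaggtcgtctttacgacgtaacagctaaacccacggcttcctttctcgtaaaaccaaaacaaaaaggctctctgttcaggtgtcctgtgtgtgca
Il1rl1 distal: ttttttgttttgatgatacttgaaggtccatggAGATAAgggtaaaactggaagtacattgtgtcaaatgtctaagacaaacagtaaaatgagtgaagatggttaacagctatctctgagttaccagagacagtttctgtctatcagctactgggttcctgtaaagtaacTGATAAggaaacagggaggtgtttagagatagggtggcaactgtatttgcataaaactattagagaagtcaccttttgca
Il1rl1 proximal: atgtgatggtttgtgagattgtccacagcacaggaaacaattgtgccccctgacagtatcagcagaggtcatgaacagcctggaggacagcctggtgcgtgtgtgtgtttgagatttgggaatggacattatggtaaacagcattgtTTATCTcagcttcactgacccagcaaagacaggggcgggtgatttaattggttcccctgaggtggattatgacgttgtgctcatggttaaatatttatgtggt
The distal Il1rl1 window held 2 GATA matches and the proximal window held 1. This Foxp3 window held 2 matches, a further Foxp3 start not shown had 1, and the Ctla4 window had 0. At least 1 match occurs in 16.6% of 32851 such windows of mouse genes, so a match describes these letters only. The forkhead letters GTAAACA were in the proximal Il1rl1 window and in 3.17% of all windows, and the NFAT core GGAAA was in each of the 4 windows and in 55.6% of all windows.

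Library depth ranged from 36.8 to 61.9 M counts (M for mega). The libraries were of 2 kinds, and this bears on every value below. In 6 libraries (WT replicates 1 and 2, Lepob/+ replicate 3, SOD1G93A replicates 1, 2 and 4) Chst4, a sulfotransferase of high endothelial venules in lymph nodes, had 73 to 244 counts, and Glycam1, a ligand made by the same vessels, had 8931 to 25444. In the other 10 libraries, which include all 4 of SOD1G93A-Lepob/+, Chst4 had 0 counts and Glycam1 at most 3. The summed level of 5 lymph node stroma and venule genes (Glycam1, Chst4, Madcam1 and others) was 292 to 731 CPM (counts scaled to library size, with TMM factors) in the former and 3.41 to 46.6 CPM in the latter. The summed level of 8 T cell genes (Cd3e, Cd3d, Cd3g and others) was 467 to 899 CPM against 10.7 to 23.8 CPM. In addition, SOD1G93A-Lepob/+ replicate 3 had 0 counts of Xist and 1756 counts of Y-linked genes although labelled female. Lepob/+ replicate 4 had a summed level of 4 skeletal muscle genes of 133338 CPM, against at most 3285 CPM in any other library. In bulk tissue, fewer cells of a type and less RNA per cell cannot be told apart.

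Foxp3, the transcription factor that defines regulatory T cells, separated the libraries with Chst4 from those without it. In WT, Foxp3 was at 9.41, 5.67, 0.155 and 0.238 CPM in replicates 1 to 4, and in Lepob/+ at 0.181, 0, 15.2 and 0.633 CPM. In SOD1G93A it was at 10.5, 17.5, 0.0691 and 12.1 CPM, and in SOD1G93A-Lepob/+ at 0.177, 0.225, 0.0680 and 0.197 CPM. The 6 libraries with Chst4 were all at or above 5.67 CPM and the other 10 all at or below 0.633 CPM, with no overlap, whereas the ranges of WT, Lepob/+ and SOD1G93A overlapped. The share of all genes that part the libraries by Chst4 in this way was not computed, for Foxp3 or for the genes below. The low values rest on 0 to 19 counts per library against 249 to 774 in the high ones, and the 0 in Lepob/+ replicate 2 allows up to 0.0733 CPM (3 counts, counting error only).

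Ikzf2 (Helios), another transcription factor of regulatory T cells, also had a higher median in the libraries with Chst4, with a smaller distance than Foxp3. Ikzf2 was at 10.1, 7.85, 3.95 and 2.94 CPM in WT and at 4.12, 3.47, 13.7 and 8.46 CPM in Lepob/+. In SOD1G93A it was at 8.44, 12.5, 3.18 and 10.9 CPM and in SOD1G93A-Lepob/+ at 4.16, 3.57, 2.34 and 3.85 CPM. The 2 kinds of library overlapped for Ikzf2, through the muscle-rich Lepob/+ replicate 4 at 8.46 CPM. At least 103 counts were present in every library, so the lower level was well measured.

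Il2ra, the high-affinity chain of the interleukin-2 receptor, was present everywhere. Its level was 14.6, 10.7, 3.72 and 5.66 CPM in WT and 3.92, 4.28, 17.5 and 4.10 CPM in Lepob/+. In SOD1G93A it was 11.1, 20.4, 6.97 and 16.3 CPM, and in SOD1G93A-Lepob/+ 4.25, 4.72, 4.63 and 3.57 CPM. The lowest library with Chst4 (10.7 CPM) was 1.53 times the highest without it (SOD1G93A replicate 3). All 4 SOD1G93A libraries were above all 4 SOD1G93A-Lepob/+ libraries for this gene. The share of all genes that part these genotypes in this way was not computed.

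Ctla4, the inhibitory receptor that competes for CD80 and CD86, was as sharply divided as Foxp3. It was at 8.29, 6.35, 0.232 and 0.264 CPM in WT and at 0.221, 0.122, 11.1 and 0.366 CPM in Lepob/+. In SOD1G93A it was at 8.06, 10.1, 0.190 and 9.90 CPM and in SOD1G93A-Lepob/+ at 0, 0.225, 0.0453 and 0.225 CPM. The lowest library with Chst4 was 17.3 times the highest without it, and the 0 in SOD1G93A-Lepob/+ replicate 1 allows up to 0.0664 CPM.

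Icos, a costimulatory receptor of the CD28 family, kept a measurable level in the libraries without Chst4. It was at 14.2, 12.5, 1.52 and 1.98 CPM in WT and at 1.83, 2.00, 16.6 and 1.20 CPM in Lepob/+. In SOD1G93A it was at 14.9, 21.6, 1.62 and 16.4 CPM and in SOD1G93A-Lepob/+ at 1.24, 1.20, 1.41 and 0.786 CPM. Here, too, all 4 SOD1G93A libraries were above all 4 of SOD1G93A-Lepob/+, by 1.62 CPM against 1.41 CPM at the nearest. Apart from Il2ra and Icos, every gene of the list overlapped between these genotypes. The share of all genes without such an overlap was not computed.

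The TNF receptor family members Tnfrsf4 (OX40) and Tnfrsf18 (GITR) are costimulatory receptors at high level on regulatory T cells. Tnfrsf4 ranged from 11.2 to 15.4 CPM in the libraries with Chst4 and from 0.996 to 3.06 CPM in those without. Tnfrsf18 ranged from 10.3 to 14.5 CPM and from 0.340 to 2.06 CPM in the same libraries. Neither gene overlapped between the 2 kinds of library, and neither did the summed level of the T cell genes.

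Il1rl1 (ST2) and Klrg1, both used for the effector regulatory T cells of tissues, did not follow the split. Il1rl1 was at 4.601, 9.61, 7.13 and 18.4 CPM in WT and at 11.9, 15.2, 5.003 and 4.26 CPM in Lepob/+. In SOD1G93A it was at 8.25, 6.82, 10.7 and 10.7 CPM and in SOD1G93A-Lepob/+ at 8.72, 11.2, 11.8 and 10.03 CPM. Libraries with Chst4 (4.601 to 10.7 CPM) lay within the range of those without it (4.26 to 18.4 CPM). Klrg1, an inhibitory lectin-like receptor that binds cadherins, was low throughout, at 0.106 to 0.926 CPM or 4 to 41 counts a library, and its ranges in the 4 genotypes overlapped.

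**Figure D1:**
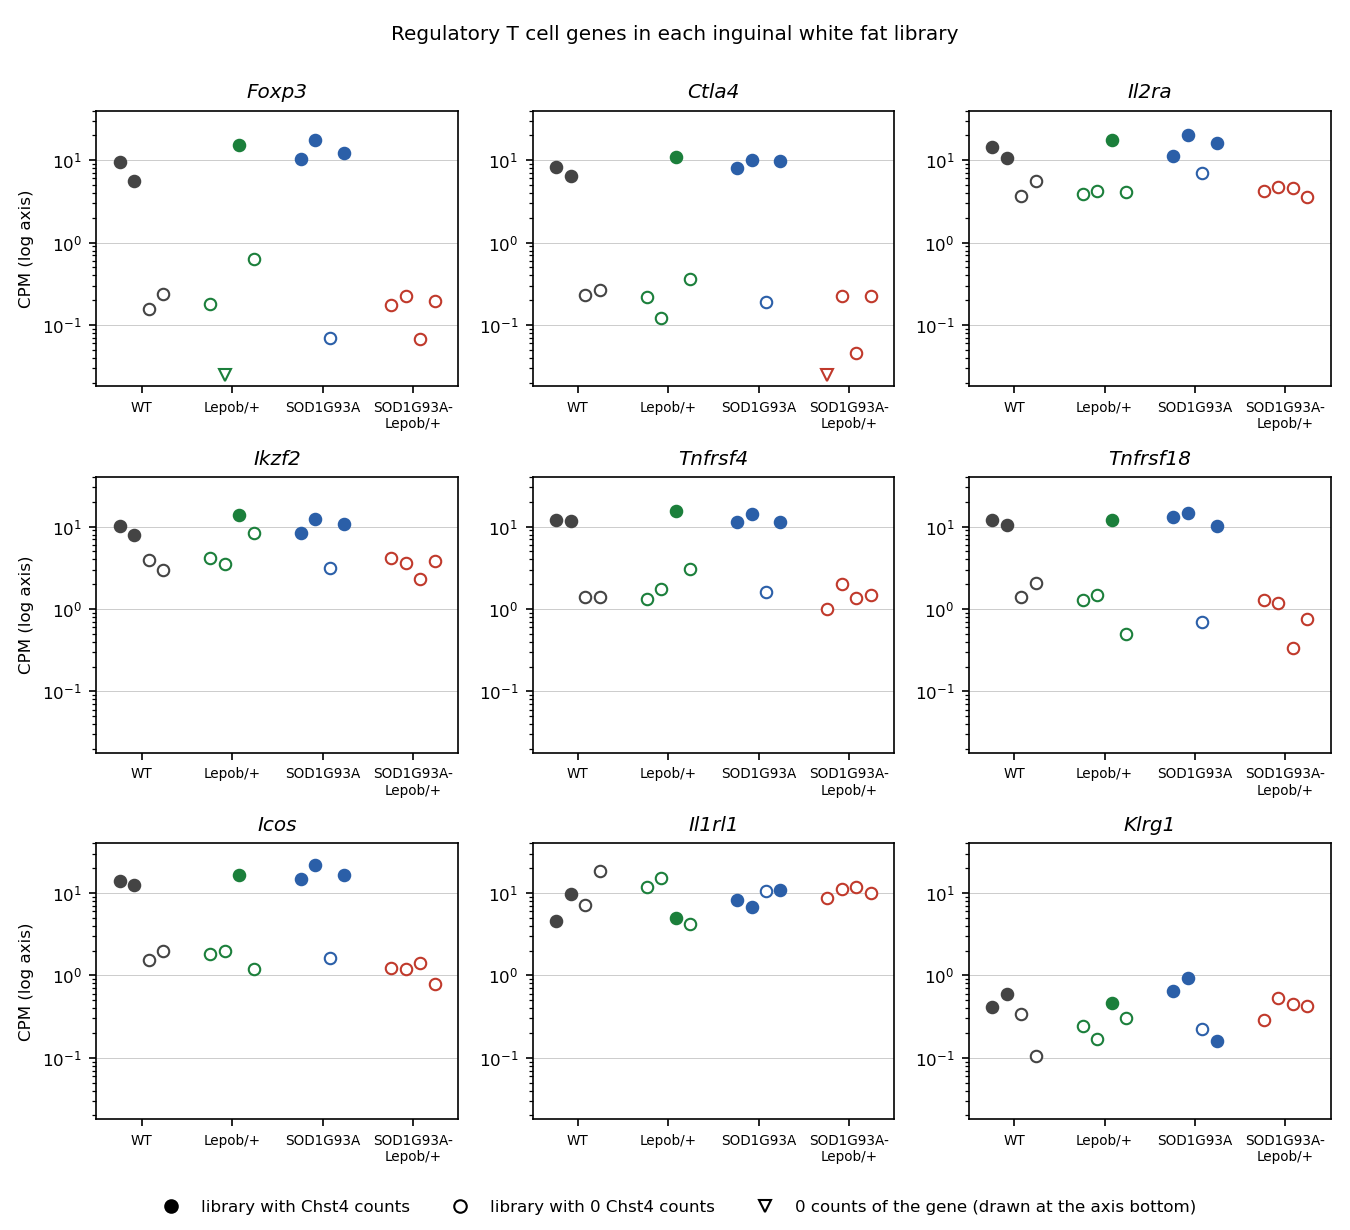
Level of each of the 9 genes in each library (CPM, log axis) by genotype, with points from left to right for replicates 1 to 4. Filled points are the 6 libraries with Chst4 counts, open points the 10 with 0 and triangles libraries with 0 counts of the gene. Foxp3 and Ctla4 separate filled from open points without overlap, whereas Il1rl1 and Klrg1 do not.

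Divided by exon length, so that genes can be compared, the order of the levels differed between the 2 kinds of library. Among the 6 libraries with Chst4 the median was highest for Tnfrsf4 (8.69 CPM per kb), followed by Tnfrsf18 (7.98), Icos (4.56), Ctla4 (3.91), Il2ra (2.70), Foxp3 (2.47), Il1rl1 (1.09), Ikzf2 (0.902) and Klrg1 (0.372). The ranges of neighbours in this order overlapped, except those of Tnfrsf18 and Icos and those of Ikzf2 and Klrg1. Among the other 10 the median was highest for Il1rl1 (1.59 CPM per kb), followed by Tnfrsf4 (1.05), Tnfrsf18 (0.807), Il2ra (0.747), Icos (0.427), Ikzf2 (0.319), Klrg1 (0.208), Ctla4 (0.0957) and Foxp3 (0.0391). Of these neighbours, Il2ra and Icos alone had ranges that did not overlap.

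The comparison that bears on a partial loss of leptin in the SOD1G93A background is SOD1G93A-Lepob/+ against SOD1G93A. Mean Foxp3 was 0.167 ± 0.0686 CPM (SD, n = 4) against 10.04 ± 7.29 CPM, and mean Icos was 1.16 ± 0.263 CPM against 13.6 ± 8.51 CPM. The log2 fold change was -5.90 (SE 2.01) for Foxp3, -5.84 (1.86) for Ctla4, -3.55 (1.02) for Icos, -3.43 (1.11) for Tnfrsf18, -2.71 (0.94) for Tnfrsf4, -1.67 (0.54) for Il2ra and -1.33 (0.51) for Ikzf2. Il1rl1 (0.19, SE 0.43) and Klrg1 (-0.21, SE 0.57) differed by less than their standard error. Foxp3 and Ctla4 passed the filter through libraries with Chst4 counts, and the same filter on these 2 genotypes alone dropped both. With the edgeR quasi-likelihood test and Benjamini-Hochberg adjustment over all genes, the adjusted p of the first 7 genes was 0.261 and 0 of the 9 genes were called. The same held for all genes tested, of which 0 were called (0%). At an unadjusted p under 0.05, 7 of the 9 genes were lower, with p from 0.00372 (Icos) to 0.0212 (Ikzf2), where 12.3% of all genes tested were lower at that level. The median log2 fold change was -2.71 over the 9 genes and 0.000478 over all genes tested. DESeq2 on these 8 libraries called all 7 of them lower, where it called 6.06% of genes in either direction and 4.75% lower. Its median over the 9 genes was -2.72, so the count of calls differed between the tools and the size of the changes hardly did. Without SOD1G93A-Lepob/+ replicate 3, whose counts go against its label, and the muscle-rich Lepob/+ replicate 4, the edgeR median was -2.67. There, 6 of the 9 had an unadjusted p under 0.05, as did 3003 of 20010 genes tested.

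The genotype contrast ran along the split of the libraries, since 3 of the SOD1G93A libraries had Chst4 counts and none of SOD1G93A-Lepob/+ did. The contrast was therefore refitted with the log2 Cd3e level as a covariate. Foxp3 was then at a log2 fold change of 0.15 (SE 0.76), Ctla4 at -0.81 (0.66), Icos at -0.61 (0.32) and Ikzf2 at -0.03 (0.32). Of the 9 genes, 0 had an unadjusted p under 0.05, where 3.89% of all genes did, and the median was -0.26. Within the libraries with 0 Chst4 counts, which leave 1 library of SOD1G93A, the values were 1.23 (SE 1.71) for Foxp3, -0.63 (1.35) for Ctla4 and -0.48 (0.40) for Icos. There, Il2ra alone had an unadjusted p under 0.05 (log2 fold change -0.70, SE 0.27, edgeR adjusted p = 1). The lone SOD1G93A library is assumed in that fit to vary like the others.

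**Figure D2:**
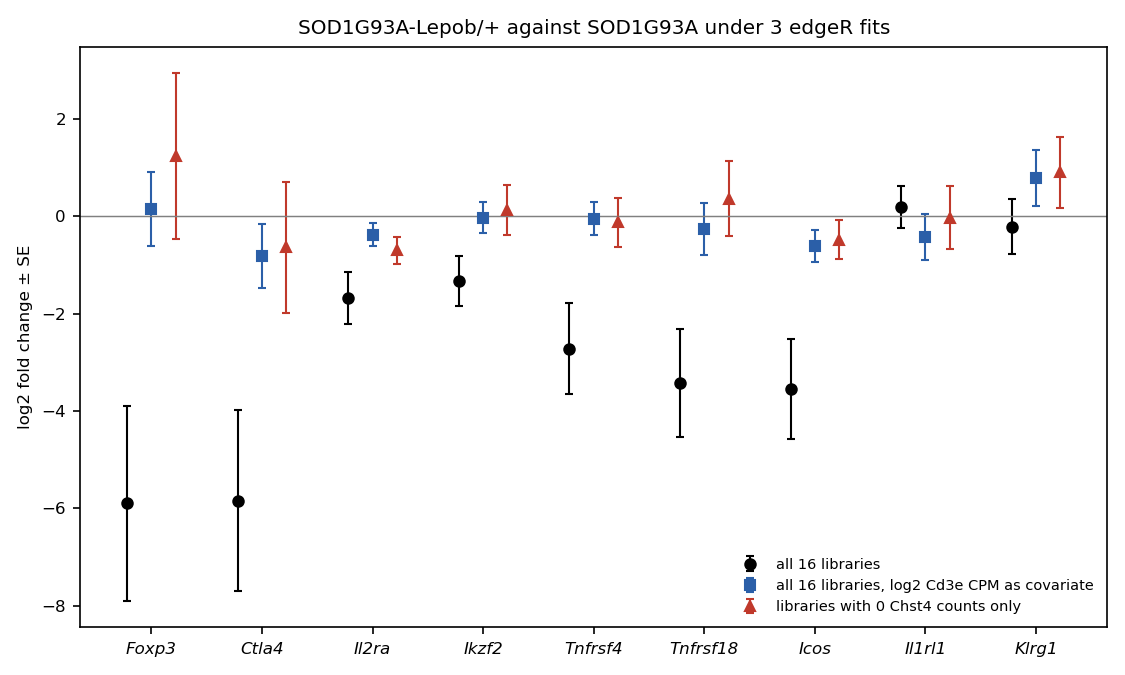
Log2 fold change of SOD1G93A-Lepob/+ against SOD1G93A for each gene, with bars of 1 SE, from edgeR on all 16 libraries (black), with the log2 Cd3e level as a covariate (blue) and on the libraries with 0 Chst4 counts only (red). The Foxp3 value moves from -5.90 to 0.15 with the covariate, whereas the Il1rl1 values of the 3 fits are 0.19, -0.42 and -0.03.

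No gene of the list passed the test with either mutation alone. In Lepob/+ against WT the edgeR fold changes lay between -0.75 (Tnfrsf18) and 0.26 (Ikzf2) on the log2 scale, with Foxp3 at 0.05 (SE 1.58). The median was -0.30, and 0 of 9 genes were called (0% of all genes) or had an unadjusted p under 0.05. These values depended on single libraries. Without Lepob/+ replicate 3, the library of that genotype with Chst4 counts, the median was -1.72. There, 5 of the 9 had an unadjusted p under 0.05, as did 2295 of 20086 genes tested. Without WT replicate 1 the median was 0.14. The limma voom fit with quality weights gave a median of -1.71 and 2 of the 9 at that level, where 1224 of 19736 genes were. In SOD1G93A against WT, 8 of 9 genes had a positive value, with Foxp3 at 1.37 (SE 1.60), Icos at 0.85 (0.92) and Il1rl1 at -0.12 (0.43). The median was 0.56, and again 0 of 9 were called (0% of all genes) or had an unadjusted p under 0.05. In the libraries with 0 Chst4 counts, with 1 library of SOD1G93A, 3 genes were positive and 6 negative, with Foxp3 at -1.48 and a median of -0.13. Without single libraries the median ranged from 0.29 (without SOD1G93A replicate 2) to 1.02 (without WT replicate 1). For Foxp3 the standard error exceeded the fold change in both comparisons, and each of these 3 genotypes held libraries of both kinds. DESeq2 on the compared genotypes called 0 of the 9 in either comparison.

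The remaining comparisons share libraries with those above. In all of them Foxp3 and Ctla4 passed the filter only through libraries with Chst4 counts, and the counts of genes below include both. The same filter on the compared genotypes alone dropped both genes where SOD1G93A-Lepob/+ was set against WT or Lepob/+. In SOD1G93A-Lepob/+ against WT, Ctla4 was at a log2 fold change of -4.95 (SE 1.81), Foxp3 at -4.53 (1.91), Tnfrsf18 at -2.87 (1.08), Icos at -2.70 (0.99) and Tnfrsf4 at -2.18 (0.92). These 5 had an unadjusted p under 0.05 (edgeR), where 3.52% of all genes were lower at that level, and 0 were called (0%; adjusted p = 0.951). The count fell to 2 without WT replicate 1 or SOD1G93A-Lepob/+ replicate 3 and to 3 without WT replicate 2 or SOD1G93A-Lepob/+ replicate 1 or 4. DESeq2 on the compared genotypes called Foxp3, Ctla4, Tnfrsf18 and Icos, where it called 1.22% of genes and 1.1% as lower. In SOD1G93A-Lepob/+ against Lepob/+ the values were -4.59 (SE 1.79) for Ctla4, -4.58 (1.91) for Foxp3 and -2.22 (0.97) for Icos. These 3 had an unadjusted p under 0.05, where 6.28% of all genes were lower at that level, and 0 were called (0%). The count was 0 without Lepob/+ replicate 3 or SOD1G93A-Lepob/+ replicate 1 or 3, and 1 without SOD1G93A-Lepob/+ replicate 2 or 4. It was 5 without WT replicate 4 or Lepob/+ replicate 2 and 6 without Lepob/+ replicate 1 or SOD1G93A replicate 3. DESeq2 on all libraries also called 0 of the 9. The interaction of both mutations, the change with both beyond the sum of the single changes, was -5.95 (SE 2.48) for Foxp3, -5.48 (2.29) for Ctla4, -3.07 (1.34) for Icos and -1.59 (0.72) for Ikzf2 on the log2 scale. These 4 had an unadjusted p under 0.05, where 5.82% of all genes were lower at that level, and 0 were called (0%, edgeR adjusted p = 0.564). DESeq2 on all libraries called 0 of the 9 here, too. The number at that level was 0 without Lepob/+ replicate 3 and 1 without SOD1G93A replicate 2 or SOD1G93A-Lepob/+ replicate 1 or 3. It was 2 without WT replicate 3 or 4, SOD1G93A replicate 1 or 4, or SOD1G93A-Lepob/+ replicate 2 or 4, and 7 without SOD1G93A replicate 3. The median of the interaction over the 9 genes was -2.41 with all libraries, -0.99 without Lepob/+ replicate 3, and -0.40 in the libraries with 0 Chst4 counts, of which 1 is from SOD1G93A.

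Per T cell receptor transcript, the list divided into 2 sets. Cd3e itself ranged from 49.0 to 97.9 CPM in the libraries with Chst4 and from 0.489 to 1.93 CPM in the others (2152 to 4336 counts against 20 to 73). Its lowest level in the former was 25.4 times its highest in the latter. Any gene whose levels differ by less than that has a higher ratio where Cd3e is low, whatever its source. For every 100 Cd3e counts there were 11.6 to 22.6 Foxp3 counts (median 17.4) in the former and 0 to 65.5 (median 15.5) in the latter. For Ctla4 there were 10.3 to 18.5 (median 13.0) and 0 to 37.9 (median 20.0). The 2 ranges overlapped for both genes, and the low libraries are imprecise: the 4 Foxp3 counts in SOD1G93A replicate 3 give 7.27 per 100 Cd3e with an exact 95% interval of 1.91 to 19.7. Foxp3 in the muscle-rich Lepob/+ replicate 4 stood at 65.5 (34.7 to 121), above the interval of each of the 6 libraries with Chst4.

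The other 7 genes were far higher per Cd3e count where Cd3e was low. Il2ra had 18.1 to 30.3 counts per 100 Cd3e in the libraries with Chst4 and 265 to 875 in the others, with no overlap. Ikzf2 had 12.8 to 20.2 against 152 to 876, and Icos had 20.5 to 30.5 against 58.3 to 410. Tnfrsf4 had 14.3 to 23.6 against 72.6 to 355, and Tnfrsf18 had 14.8 to 21.2 against 45.5 to 300. Il1rl1 had 6.64 to 20.0 against 441 to 3105, and Klrg1 had 0.301 to 1.21 against 5.48 to 70. So of the 9 genes, Foxp3 and Ctla4 alone had overlapping ratios to Cd3e. The share of all genes with ratios that do not overlap was not computed, so this division cannot be called particular to the list. The source of the transcripts that did not scale with Cd3e was not tested. Each of these 7 genes is also known from cells other than T cells.

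**Figure D3:**
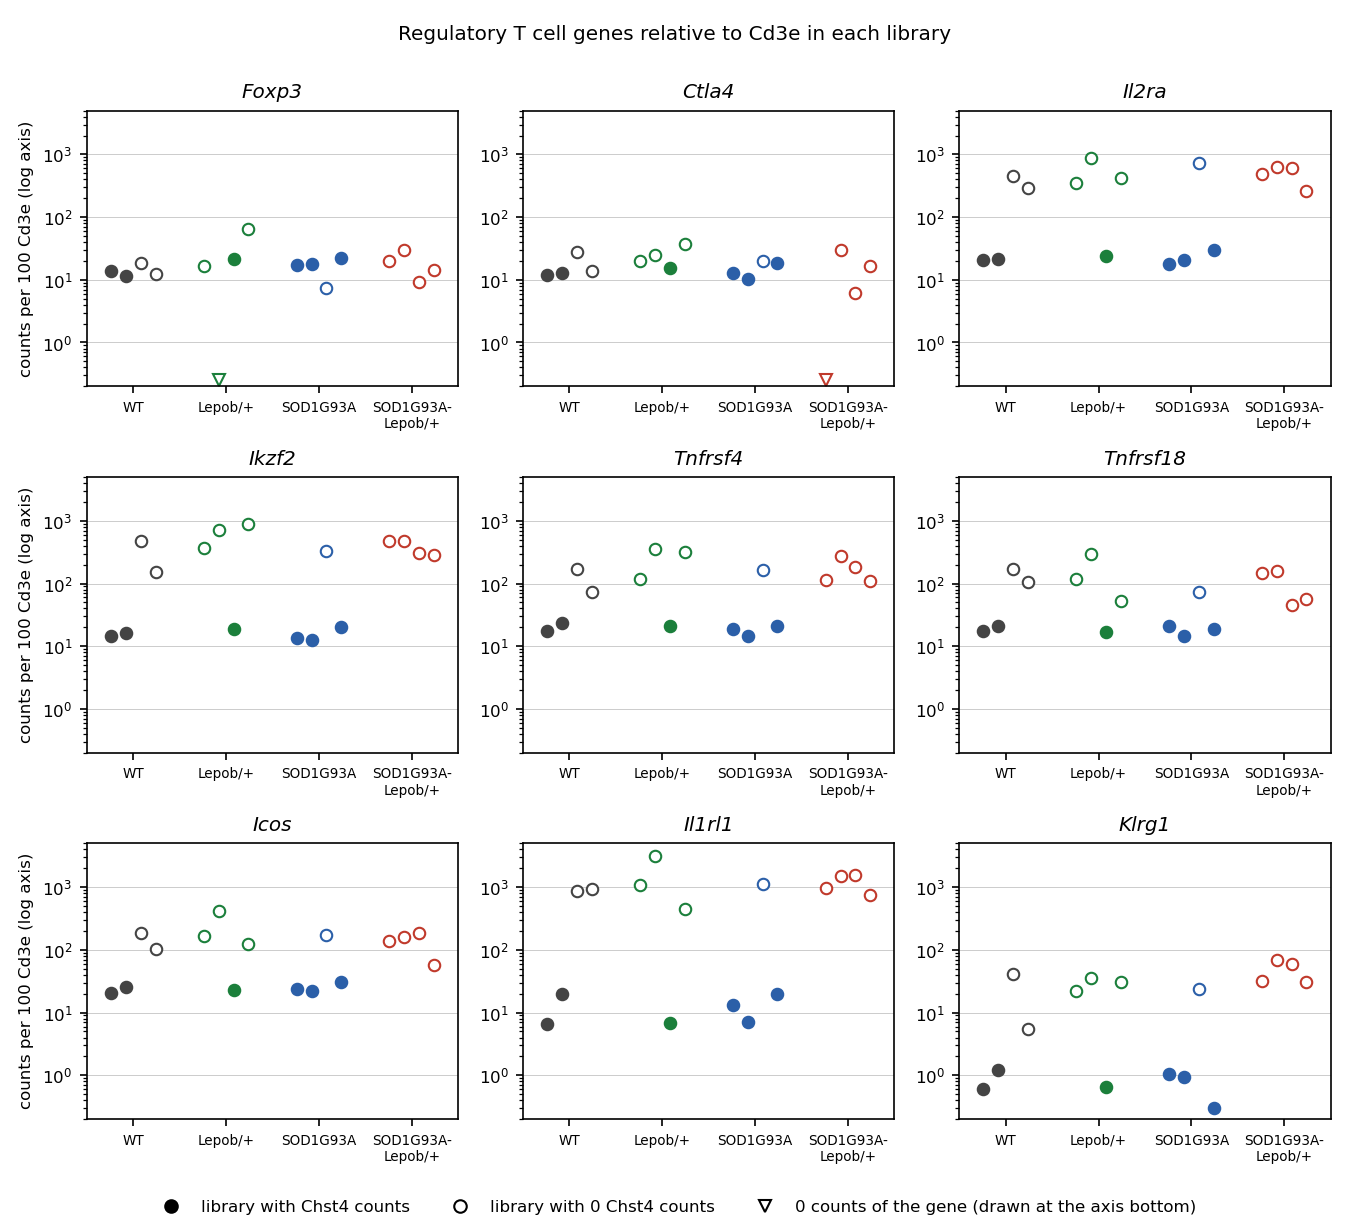
Counts of each gene per 100 counts of Cd3e in each library (log axis) by genotype, with symbols for Chst4 counts and for 0 counts as in the plot of CPM. Foxp3 and Ctla4 lie at a like ratio in filled and open points, and the other 7 genes lie higher in every open point than in every filled point.

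Between genotypes, 45 differences in the ratio were tested by exact permutation of the 8 library labels (two-sided, smallest possible p 0.0286). In SOD1G93A-Lepob/+ against SOD1G93A the mean log2 ratio of Foxp3 to Cd3e was -2.38 ± 0.62 against -2.64 ± 0.52 (SD), a difference of 0.26 (exact p = 0.6), and with Cd4 as the denominator the difference was -0.79 (exact p = 0.143). The difference was -0.51 for Ctla4 (exact p = 0.6), 3.11 for Il2ra (exact p = 0.143) and 4.89 for Il1rl1 (exact p = 0.0857). Klrg1 was the exception among the 45, with a log2 ratio of -1.09 ± 0.58 against -5.85 ± 2.69, a difference of 4.76 at the smallest possible p (exact p = 0.0286). That value rests on 7 to 41 Klrg1 counts a library and on the low Cd3e of SOD1G93A-Lepob/+, and with Cd4 as the denominator the exact p was 0.0857. The median difference over the 9 genes was 2.32 on the log2 scale with all libraries and 0.03 without those that have Chst4 counts. The median was 1.41 in Lepob/+ against WT, -0.71 in SOD1G93A against WT, 1.71 in SOD1G93A-Lepob/+ against WT and 0.27 in SOD1G93A-Lepob/+ against Lepob/+, each with 0 tests at an exact p under 0.05. Without single libraries the first of these medians ranged from 0.58 (without WT replicate 1) to 2.30 (without Lepob/+ replicate 3), and the second from -1.48 (without SOD1G93A replicate 3) to 0.0062 (without WT replicate 3). The third ranged from 1.23 (without WT replicate 1) to 2.31 (without WT replicate 3), and the last from -0.47 (without Lepob/+ replicate 3) to 0.90 (without Lepob/+ replicate 2).

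**Figure D4:**
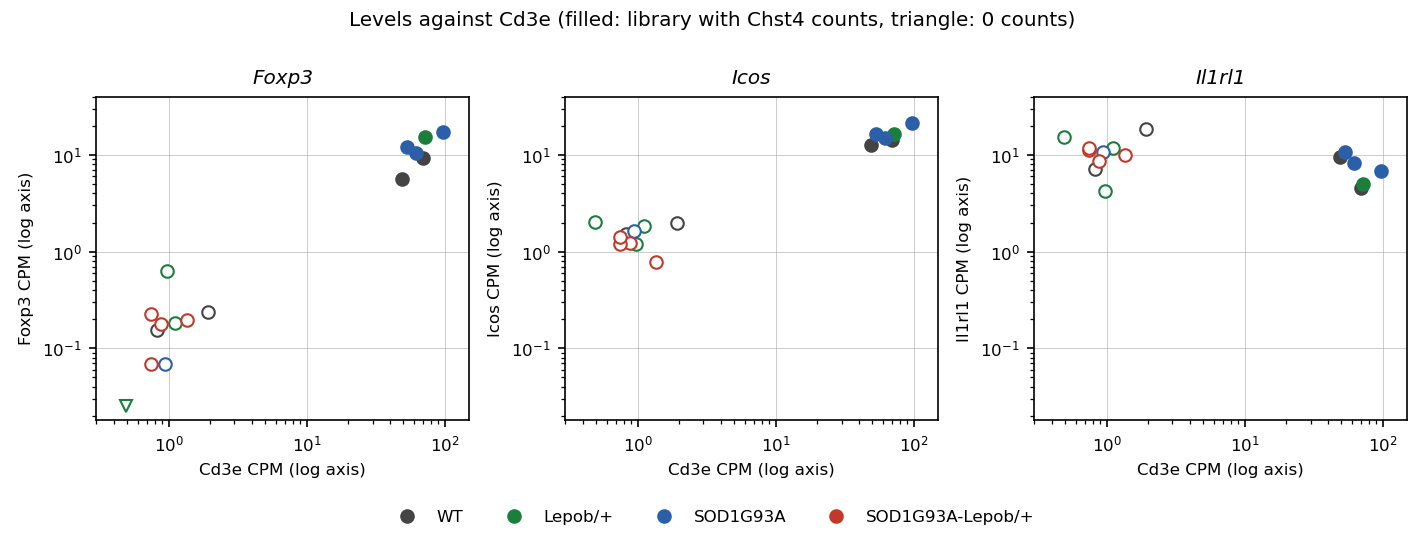
Level of Foxp3, Icos and Il1rl1 against that of Cd3e in each library (CPM, both axes log), coloured by genotype, with filled points for the 6 libraries with Chst4 counts and triangles for 0 counts. No library lies between 1.93 and 49.0 CPM of Cd3e. Foxp3 is higher above that gap than below it, Icos lies at 0.786 to 2.00 CPM below it, and Il1rl1 does not rise with Cd3e.

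Ligands, partner chains and counter-receptors of the 9 genes were taken as a list of 13. In SOD1G93A-Lepob/+ against SOD1G93A, 5 of 13 were lower at an unadjusted p under 0.05, where 12.3% of all genes were, and 0 were called (edgeR), with a median log2 fold change of -0.69. The other interleukin-2 receptor chains were among them, Il2rb at -2.99 (SE 1.09) and Il2rg at -2.37 (0.86), as was Cd28, the activating receptor that shares ligands with Ctla4, at -3.14 (1.05). Icosl, the ICOS ligand, was at 18.8 ± 2.56 CPM against 94.2 ± 56.1 CPM, a log2 fold change of -2.33 (SE 0.69). Tnfsf4, the OX40 ligand, had 0 counts in all 4 SOD1G93A-Lepob/+ libraries and at most 0.300 CPM in SOD1G93A, so no fold is given. The CTLA-4 ligands Cd80 (-0.42, SE 0.38) and Cd86 (-0.69, SE 0.40) had an unadjusted p of 0.287 and 0.112 (edgeR). Il33, the ligand of ST2, was at 38.2 ± 11.6 CPM against 26.96 ± 5.99 CPM (log2 fold change 0.50, SE 0.45), and its second receptor chain Il1rap at 0.05 (SE 0.33). The Klrg1 ligands Cdh1 (0.69, SE 0.32) and Cdh2 (0.02, SE 0.17) likewise did not pass the unadjusted threshold. Il2 and Tnfsf18, the ligands of Il2ra and Tnfrsf18, were at most 0.978 CPM and 1.09 CPM in any library. Il2 was the 1 partner gene with an unadjusted p under 0.05 in Lepob/+ and in SOD1G93A against WT, where 3.56% and 1.64% of all genes were higher at that level, at 0 to 0.978 and 0 to 0.829 CPM against 0 to 0.0619 CPM, with overlapping ranges.

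A further list held 20 genes known from regulatory T cells of lymph nodes or tissues. In SOD1G93A-Lepob/+ against SOD1G93A, 8 were lower and 1 (Gata3, a transcription factor of type 2 and tissue regulatory T cells, log2 fold change 0.90, SE 0.35) was higher at an unadjusted p under 0.05, and 0 were called (edgeR). Of all genes tested, 12.3% were lower and 4.19% higher at that level, so 1 of 20 higher is near the share over all genes. The 4 with the smallest p were Itgae, the integrin chain CD103 (-3.45, SE 1.03), Lag3, an inhibitory receptor (-1.08, SE 0.37), and the chemokine receptors Ccr4 (-6.33, SE 2.17) and Ccr8. Ccr8 had 0 counts in all 4 SOD1G93A-Lepob/+ libraries and 0 to 1.22 CPM in SOD1G93A. The median over the list was -0.55, also with Ccr8 set to its bound of 3 counts per library. In Lepob/+ against WT and in SOD1G93A against WT, 0 of the 20 had an unadjusted p under 0.05. Mean Gata3 was 90.6 ± 31.5 CPM (SD) with both mutations against 48.5 ± 16.1 CPM with the SOD1 transgene alone. Cd3e had means of 0.933 and 53.6 CPM in these genotypes, and Foxp3 of 0.167 and 10.04 CPM. Spearman's rank correlation of Gata3 with Foxp3 over the 16 libraries was 0.0559. Gata3 thus did not follow Foxp3, and the source of its transcripts was not tested.

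Other cells that use the same genes were followed by marker lists. Of 6 genes of type 2 innate lymphoid cells, which carry ST2, Klrg1 and Icos, the defining cytokines Il5 and Il13 had at most 7 counts in any library. The summed level of the 6 was 14.3 to 54.1 CPM in the libraries with Chst4 and 3.07 to 9.84 CPM in the others. That difference was carried mostly by Il9r (4.87 to 25.6 CPM against 0.0666 to 0.582 CPM) and, in SOD1G93A replicate 1, by Calca (33.0 CPM), while the ranges of the other 4 genes overlapped. The 6 mast cell genes (Cpa3, Mcpt4, Cma1 and others), from another cell with ST2, were at a summed level of 182 to 229 CPM in SOD1G93A-Lepob/+ and 113 to 165 CPM in SOD1G93A, without overlap, and at 101 to 161 CPM in WT and 94.7 to 175 CPM in Lepob/+. All 6 had a positive fold change in SOD1G93A-Lepob/+ against SOD1G93A and 0 passed an unadjusted p under 0.05 (edgeR). The 6 natural killer cell genes (Ncr1, Klrb1c, Klrk1 and others) summed to 21.9 to 49.3 CPM with Chst4 and 7.66 to 14.2 CPM without it. The 4 macrophage genes (Adgre1, Csf1r, Cd68 and others) ranged from 301 to 1361 CPM, the 4 blood endothelium genes (Pecam1, Cdh5, Kdr and others) from 482 to 1014 CPM and the 4 adipocyte genes (Adipoq, Plin1, Cidec and others) from 8381 to 19122 CPM. The part of these cells in the levels of the 9 genes was not tested.

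The genes most alike in pattern were sought by Spearman's rank correlation over the 16 libraries, which share the split by Chst4, so the coefficient is also given within the 6 and the 10 libraries. For Foxp3 they were Dtx1 (coefficient 0.979, and 0.829 and 0.952 within the 6 and the 10), Shisa3 (0.968, 0.771 and 0.915) and Kcnmb4 (0.965, 0.886 and 0.879). The Spearman correlation of Foxp3 with Ctla4 was 0.935 (0.886 and 0.758), and with Cd3e 0.912 (0.771 and 0.685). For Ikzf2 they were Nxf1 (0.938, 0.886 and 0.818), Ubac2 (0.938, 0.714 and 0.879) and Zap70 (0.938, 0.714 and 0.867). Il1rl1 had a different set of neighbours. These were Abi3bp (0.959, 1 and 0.879), Ptgs1 (0.959, 0.829 and 0.988) and Marcks (0.944, 0.829 and 0.976). The coefficient of Il1rl1 with its partner chain Il1rap was 0.812 (0.886 and 0.891). With the 4 macrophage genes it ran from 0.532 (Adgre1) to 0.891 (Csf1r). Within the 6 libraries this range was 0.657 to 0.886, and within the 10 it was 0.394 to 0.927. With the 6 mast cell genes it ran from -0.506 (Kit) to 0.750 (Cpa3), with Ms4a2 at 0.0235. Within the 6 libraries that range was -0.314 (Kit) to 1 (Cpa3), and within the 10 it was -0.661 (Kit) to 0.406 (Mcpt4). The coefficient of Il1rl1 with Foxp3 was -0.529 (-0.143 and -0.212). For Klrg1 they were Trmt61a (0.868, 0.886 and 0.733), Helz (0.847, 0.771 and 0.867) and 2010204K13Rik (0.826, 0.829 and 0.685), on a gene of few counts.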

How the data were processed

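The 9 genes, the marker lists and the comparisons were chosen with earlier results of these data known. The authors trimmed reads with fastp, aligned them to mm10 with HISAT2 (2.1.0 in the submitters' processing notes), ran featureCounts (2.0.2) on the uniquely mapped reads, and deposited raw counts of 54752 Ensembl genes for the 16 libraries, with no normalization. The labels and the methods name different library kits, and the strand setting is not given in the sources used here. Of the IDs, 54723 were paired with a symbol through GENCODE M21 (GRCm38), which also gave coordinates and exon lengths. RefSeq gave promoter windows.

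The count analysis used edgeR 4.0.16 (R 4.3.3): filterByExpr by genotype (minimum count 10, minimum total 15), TMM scaling, and a robust quasi-likelihood F test on genotype means of all 16 libraries, two-sided, with Benjamini-Hochberg adjustment over 19736 genes at 0.05. DESeq2 1.42.0 and limma 3.58.1 (voom with quality weights) were alternatives. The edgeR steps were tested on simulated counts with planted changes and a common spread. Those counts lacked the split by Chst4, so they do not show how the steps perform on it. A prior count of 1 was added before taking log2, also for the ratio to Cd3e, which was tested by exact permutation. A count of 0 was given a limit of 3 counts. P-values measure the spread between libraries, which the study describes as separate animals. Same-numbered replicates showed no common direction: of 24 same-number pairs, 5 had a correlation over 0.1 and 8 had one under -0.1. The correlations ran from -0.694 to 0.520, and pairs of different numbers were not compared. Genes named were all 9 and Cd3e, every partner gene, the 4 further genes of smallest p, the first genes of each marker list and the 3 most alike of Foxp3, Il1rl1, Klrg1 and Ikzf2. Gata3 was named after its value was seen, as were the Il1rl1 relations with Il1rap and with the macrophage and mast cell genes. One marker list is not reported here.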

Additional observations from a re-analysis of the deposited data

Results flagged for a closer look

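In 72 sets of 4 libraries (9 genes, 4 genotypes, level and ratio to Cd3e), the highest or the lowest library was tested for a gap to its neighbour. The gap had to exceed 0.829 of the whole range, a level that 4 normal values reach in about 1 set of 20. That level was passed 11 times. The sets share libraries, and those outside SOD1G93A-Lepob/+ mix libraries with and without Chst4 counts. The number of passes is therefore a description and is not set against chance. In SOD1G93A, replicate 3, the library of its genotype with 0 Chst4 counts, was apart in 9 of them. Its level was far below the other 3 for Foxp3 (0.0691 CPM), Ctla4 (0.190 CPM), Tnfrsf4 (1.59 CPM), Tnfrsf18 (0.691 CPM) and Icos (1.62 CPM), where the others were at 10.5 to 17.5 CPM for Foxp3 and at 14.9 to 21.6 CPM for Icos. Per 100 counts of Cd3e the same library was far above the others for Il2ra (734.5), Ikzf2 (334.5), Tnfrsf4 (167) and Icos (171), where the others had 18.1 to 30.3 counts of Il2ra. In Lepob/+, replicate 3, the library of its genotype with Chst4 counts, was apart for the Il2ra level (17.5 CPM against 3.92 to 4.28 CPM) and for Klrg1 per 100 counts of Cd3e (0.639 against 21.8 to 35.0).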

How the results depend on the processing

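With edgeR, 0 of the genes were called under every scaling, filter, covariate and left-out library tried (a stricter filter dropped Klrg1, and the filter on the compared genotypes alone dropped Foxp3 and Ctla4 wherever SOD1G93A-Lepob/+ was compared), and the numbers that follow are log2 fold changes unless said otherwise. In SOD1G93A-Lepob/+ against SOD1G93A, DESeq2 called 6 of the 9 when fitted on all libraries (565 of 30729 genes tested). On the compared genotypes it called 7 (1780 of 29385 genes), with 4 in SOD1G93A-Lepob/+ against WT (353 of 28903 genes). Voom called 7 in SOD1G93A-Lepob/+ against SOD1G93A, where it called 6212 of all 19736 genes tested. The replicate block gave medians of -0.18, 0.70, -2.74, -2.05, -1.88 and -2.57 in the 6 comparisons in the order of the single mutations, SOD1G93A-Lepob/+ against SOD1G93A, WT and Lepob/+, and the interaction, and left 7, 3, 0 and 0 genes at an unadjusted p under 0.05 in the last 4 (7, 5, 3 and 4 without it). It changed no call, and with it 2692, 534, 760 and 969 of all 19736 genes had such a p in these 4. Without single libraries, 0 to 5 genes of the list had such a p in Lepob/+ against WT, 0 in SOD1G93A against WT, 6 to 7, 2 to 6 and 0 to 6 in SOD1G93A-Lepob/+ against SOD1G93A, WT and Lepob/+, and 0 to 7 in the interaction. Over all 20011 to 20153 genes tested, 341 to 2295 and 217 to 1541 had such a p with the single mutations. In SOD1G93A-Lepob/+ against SOD1G93A, WT and Lepob/+ these were 1473 to 5635, 436 to 1456 and 1057 to 2477, and in the interaction 751 to 3258. Leaving out SOD1G93A-Lepob/+ replicate 3 and Lepob/+ replicate 4 left 6 of the 9 with such a p in SOD1G93A-Lepob/+ against SOD1G93A (3003 of 20010 genes tested). The median there was -2.67.

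Medians over the 9 genes moved with the covariates, the choice of libraries and the tool. In SOD1G93A-Lepob/+ against SOD1G93A, WT, Lepob/+ and in the interaction they were -0.26, 0.021, -0.45 and -0.60 with the Cd3e covariate, -0.36, -0.15, -0.37 and -0.41 with a lymph node stroma covariate, and -0.029, -0.25, -0.47 and -0.40 in libraries with 0 Chst4 counts (chosen after seeing the data), where the median ratio difference was 0.026. Voom gave -1.71 in Lepob/+ against WT, -0.28 in SOD1G93A-Lepob/+ against Lepob/+ and -1.14 in the interaction. Without single libraries these 3 medians ranged from -1.72 to 0.14, from -2.20 to -0.47 and from -2.86 to -0.99, and Lepob/+ replicate 3, the library of its genotype with Chst4 counts, set the values -1.72, -0.47 and -0.99.

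Signs of single genes turned as follows. With the Cd3e covariate, in SOD1G93A-Lepob/+ against SOD1G93A, Foxp3 was at 0.15, Il1rl1 at -0.42 and Klrg1 at 0.79, and against WT Foxp3 was at 0.49, Ikzf2 at 0.10, Il2ra at 0.021 and Tnfrsf4 at 0.065. With the stroma covariate Il1rl1 (-0.36) and Klrg1 (0.72) turned against SOD1G93A, and Tnfrsf18 in SOD1G93A against WT (-0.47) and the interaction (0.28). In libraries with 0 Chst4 counts SOD1G93A against WT gave -1.48 for Foxp3, -0.13 for Icos, -0.13 for Ikzf2 and -1.34 for Tnfrsf18. SOD1G93A-Lepob/+ against SOD1G93A gave 1.23 for Foxp3, 0.14 for Ikzf2, 0.90 for Klrg1 and 0.37 for Tnfrsf18, and against WT 0.0029 for Ikzf2 and 0.048 for Tnfrsf4. Against Lepob/+ Il2ra was at 0.072, and the interaction was 0.83 for Foxp3 and 1.05 for Tnfrsf18. In libraries with Chst4 counts Il2ra was at 0.44 in Lepob/+ against WT. Voom gave -4.59 for Foxp3, -0.57 for Ikzf2 and 0.48 for Il1rl1 in Lepob/+ against WT, 0.73 for Foxp3 and -0.23 for Il1rl1 in SOD1G93A-Lepob/+ against Lepob/+, and -0.35 for Il1rl1 in the interaction. Without single libraries Foxp3 in Lepob/+ against WT ranged from -3.91 to 0.97, Il1rl1 from -0.49 to 0.33 there and from -0.37 to 0.34 in SOD1G93A against WT, and Il2ra from -1.03 (without Lepob/+ replicate 4 and SOD1G93A-Lepob/+ replicate 3 together) to 0.073 in SOD1G93A-Lepob/+ against Lepob/+. With Cd4 as the denominator the Foxp3 ratio difference was -0.79 against SOD1G93A and -0.46 against WT. The cause of these changes was not tested. In the libraries with 0 Chst4 counts, 0 to 19 counts of Foxp3 and 20 to 73 of Cd3e limit the precision of every ratio.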
